A study of Mus musculus with 54 samples.

Results

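The libraries described here are the 3 cultures of primary mouse lung fibroblasts that received branched-chain amino acids (BCAA, namely valine, leucine and isoleucine) back in BCAA-free medium, and the 3 cultures kept without them, all under transforming growth factor β1 (TGF-β1). They were chosen by their titles, as 6 of the 24 fibroblast libraries and of the 54 samples of the series, the others being whole lungs, which were not used here. The study asks how BCAA bear on fibrosis, and the return of BCAA asks what the missing amino acids alone had changed. The cells were wild type, labelled as batch 1, and came from lungs of mice 6 to 8 weeks old by collagenase digestion and adhesion. How many mice were pooled, and whether the 3 libraries of a group are separate isolates, is not stated in the labels. The p-values therefore measure the spread between libraries within groups, which may be technical. This spread was estimated over all 24 fibroblast libraries (8 groups of 3), not over these 6 alone. Cells of the BCAA-free group spent 24 h in medium without BCAA, and cells of the returned group 24 h in that medium with BCAA added, and each then received 20 ng/mL of TGF-β1 for 48 h. Returned thus means that BCAA were in the BCAA-free medium from the start of those 24 h, not that starved cells were given them later. Cultures were kept at 5% oxygen. Whether the medium was kept during TGF-β1, and the BCAA concentration, are not stated there either. For comparison, 3 libraries each came from complete medium with TGF-β1, from BCAA-free medium with branched-chain keto acids (BCKA, the BCAA after loss of their amino group) and TGF-β1, and from BCAA-free medium without and with BCAA under PBS in place of TGF-β1.

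TGF-β1 turns fibroblasts into myofibroblasts, cells that build actin stress fibres and secrete collagen, and collagen made at that rate consumes large amounts of amino acids. A cell that lacks an essential amino acid senses uncharged transfer RNA through the kinase GCN2, which raises the transcription factor ATF4 and its targets for amino acid uptake, synthesis and transfer RNA charging. Leucine is also sensed through the Sestrins, which hold back the growth kinase complex mTORC1 when leucine is low.

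Levels are given as CPM, a gene's reads as a share of all counted reads of its library, scaled to the same total in each. They are not scaled to gene length and so are compared between libraries only, never between genes. Changes are the returned minus the BCAA-free group on the log2(CPM + 1) scale, with the standard error (SE) of the fit. Whole reads recovered from the values numbered 39036912 to 47156122 in these 6 libraries. A gene was called higher or lower at a Benjamini-Hochberg adjusted p under 0.05 in limma over 13084 genes tested, and only called genes are said to rise or fall. Values in the order of the 3 replicate numbers are given for the main genes, and mean ± SD is over 3 libraries (n = 3).

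Return of BCAA moved most of the genes tested. Of 13084 genes, 7633 (58.3%) were called, 3276 higher (25%) and 4357 lower (33.3%). At 2-fold or more on the log2(CPM + 1) scale, 1149 rose and 1088 fell. The ranges of the returned and the BCAA-free libraries did not overlap for 7355 genes (56.2%). These shares are the background for every count of list members below, and the median change over all genes tested was -0.07 log2. The 3 libraries with BCAA returned were alike, with a Pearson r of 0.995 to 0.997 between pairs over the genes tested. In bulk samples such as these, a change in the share of cells of a type and a change of RNA per cell cannot be told apart.

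The BCAA-free library 1 stood apart from the other BCAA-free libraries. Over the genes tested its r was 0.953 with library 2 and 0.966 with library 3, whereas libraries 2 and 3 reached 0.994. Library 1 was the high one in the collagen chain Col1a2, at 27858, 5941 and 8096 CPM, and in the elastin gene Eln, at 1534, 284 and 279.8 CPM. It was the low one in Rpl31, a ribosomal protein gene, at 15.2, 573 and 352 CPM, and B2m, the light chain of MHC class I, at 44.4, 304 and 163 CPM. The median difference of library 1 from libraries 2 and 3 ran from -0.41 log2 in the fifth of genes with the lowest GC content of the longest transcript to 0.08 log2 in the fifth with the highest. The part of GC content in the calls was not tested. Without library 1, 3071 genes (23.5%) were called higher and 5276 (40.3%) lower. Of the 7633 calls, 6853 were called in the same direction without it and none in the opposite direction. The median change over all genes tested was -0.16 log2 without library 1. Scaling factors of edgeR for library composition were 0.893, 1.09 and 1.06 in the BCAA-free libraries and 0.925 to 0.943 in the returned ones. The limma fit on CPM did not apply them. With all libraries, median centring gave 3886 genes higher and 3780 lower. The part of this offset in the calls without library 1 was not tested.

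**Figure D1:**
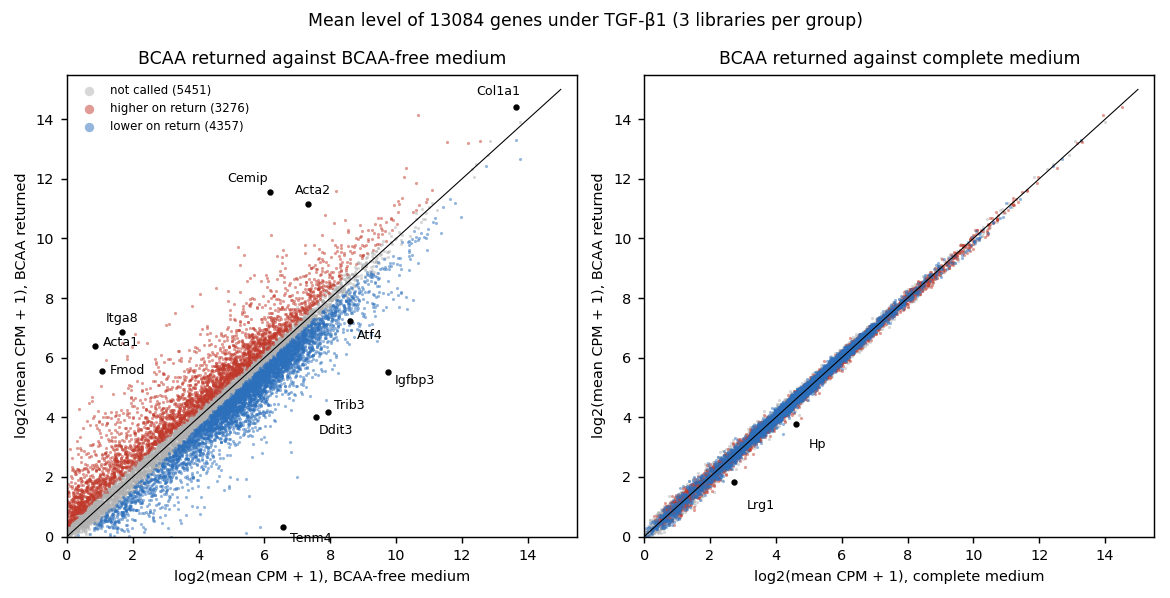
Mean levels under TGF-β1 on the log2(CPM + 1) scale, with BCAA returned on the vertical axis and BCAA-free medium (left) or complete medium (right) on the horizontal axis. Each point is 1 of 13084 genes, coloured in both panels by its call on return of BCAA, and the line marks equal levels. Points spread widely around the line on the left, while on the right they lie close to it, and Lrg1 and Hp are the 2 genes called there.

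Most genes of the amino acid shortage response fell when BCAA were returned. Of 21 ATF4-linked stress regulators tested, 17 fell and none rose, with a median of -1.22 log2, or -1.45 log2 without library 1 with the same counts. Atf4 itself, the transcription factor of the response, stood at 240.4, 460.3 and 461 CPM without BCAA and at 147, 163 and 139.6 CPM with them (-1.31 log2, SE 0.18, adjusted p = 3.05e-06). All 3 returned libraries were below all BCAA-free ones, and library 1 was the lowest of the latter. Trib3, a pseudokinase that feeds back on ATF4, was at 338, 181 and 202 CPM without and 17.9, 21.5 and 12 CPM with BCAA (-3.71 log2, adjusted p = 5.68e-12). Ddit3, which encodes the stress factor CHOP, went from 110.0, 240.4 and 209 CPM to 15, 18.4 and 12.5 CPM (-3.46 log2, adjusted p = 1.77e-11). For neither did the groups overlap, and the lowest BCAA-free library was several times above the highest returned one. The stress factor Atf3 (-2.95 log2), the phosphatase subunit Ppp1r15a (-2.57 log2), the glutathione-degrading enzyme Chac1 (-1.96 log2) and the secreted hormone Fgf21 (-1.06 log2) fell as well. The 4 members that did not pass were the translation repressor Eif4ebp1 (-0.42 log2), the mTORC1 inhibitor Ddit4 (-0.29 log2), and the kinases Eif2ak3 (-0.22 log2) and Eif2ak4, which encodes GCN2 itself (0.07 log2). Without library 1, Eif4ebp1 was called (-0.87 log2, adjusted p = 1.91e-05) and Cebpb was not (-0.67 log2 with it, -0.29 log2 without).

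Many ATF4 targets carry a C/EBP-ATF response element that joins a C/EBP site to an ATF site. Its form TTGCATCA, or TGATGCAA as read from the other strand, was searched in RefSeq promoters of build GRCm38.p6, which run from 250 bases before to 50 bases after a gene's start. These windows come from another build than the mm39 of the submitters' notes and were matched by symbol alone. Of all 27025 symbols with a window 1.03% held the element, and of the 10412 genes tested that have one 0.701% did. Among members of the lists it was found in 6 of 19 ATF4-linked regulators with a window (Atf3, Chac1, Nupr1, Fgf21, Vldlr and Jdp2), in 4 of 13 transfer RNA synthetases (Aars, Iars, Tars and Yars), in 3 of 17 transporters (Slc7a7, Slc7a11 and Slc1a4), in 2 of 10 genes of proline, glutamate and asparagine synthesis (Pycr1 and Got1) and in 0 of 13 serine and one-carbon genes. Among all genes that fell 0.938% held it, and among all that rose 0.698%, so a window with the element was rare in either. A match is only a match of letters. Of the 15 list members with it, 13 fell, Pycr1 rose (0.48 log2) and Slc7a7 did not pass (-0.06 log2). The stretches below show the element in capitals for 5 members that fell and for Pycr1, each ending before the start of the gene. They lie at chr1:191183390-191183489 on the minus strand (Atf3, element 110 bases before the start), chr2:119351003-119351102 on the plus strand (Chac1, 193 bases), chr8:111033684-111033783 on the plus strand (Aars, 112 bases), chr19:43524654-43524753 on the minus strand (Got1, 102 bases), chr3:50443626-50443725 on the minus strand (Slc7a11, which holds 2 copies in opposite directions, the first 66 bases before the start) and chr11:120643798-120643897 on the minus strand (Pycr1, 103 bases).
Atf3: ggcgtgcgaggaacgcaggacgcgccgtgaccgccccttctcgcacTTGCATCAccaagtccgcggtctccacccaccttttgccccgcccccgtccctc
Chac1: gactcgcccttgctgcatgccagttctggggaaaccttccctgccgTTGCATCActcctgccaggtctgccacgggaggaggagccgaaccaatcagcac
Aars: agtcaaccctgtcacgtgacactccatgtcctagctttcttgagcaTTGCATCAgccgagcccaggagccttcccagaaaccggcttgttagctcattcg
Got1: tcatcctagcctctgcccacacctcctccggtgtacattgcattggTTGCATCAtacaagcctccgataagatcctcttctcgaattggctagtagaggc
Slc7a11: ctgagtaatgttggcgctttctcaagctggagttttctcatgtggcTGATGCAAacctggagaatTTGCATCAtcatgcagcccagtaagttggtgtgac
Pycr1: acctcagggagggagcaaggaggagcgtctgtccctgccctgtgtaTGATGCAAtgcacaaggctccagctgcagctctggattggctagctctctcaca

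Amino acid transporters split. Of 21 tested, 10 fell and 8 rose (10 and 7 without library 1). Among those that fell were carriers of cationic amino acids, of cystine and of large neutral amino acids. The cationic transporter Slc7a3 was at 52.5, 36.3 and 39.3 CPM without and 2.84, 3.14 and 2.41 CPM with BCAA (-3.51 log2, adjusted p = 7.37e-14). The cystine exchanger Slc7a11 was at 18.8, 32.4 and 27.5 CPM and 2.32, 1.99 and 1.64 CPM (-3.16 log2, adjusted p = 6.94e-11). The leucine exchanger Slc7a5, the transport subunit of LAT1, went from 160.5, 286 and 280.0 CPM to 83.8, 82 and 58 CPM (-1.66 log2), and its partner Slc3a2 changed by -0.83 log2. Library 1 had the lowest level of Slc7a11 and Slc7a5 among the BCAA-free libraries, yet all returned libraries were lower. Rising members included 2 further carriers of large neutral amino acids, LAT3 (Slc43a1, 1.26 log2) and LAT4 (Slc43a2, 1.32 log2), and the exchanger Slc7a6 (1.41 log2).

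Enzymes that make amino acids, and those that load them on transfer RNA, mostly fell. Of 16 serine synthesis and one-carbon genes, 12 fell and 4 rose (12 and 3 without library 1), with a median of -1.21 log2. Phgdh, the first enzyme of serine synthesis, stood at 1013, 471 and 578 CPM without and 92.1, 104 and 85.1 CPM with BCAA (-2.79 log2, adjusted p = 5.49e-11), and library 1 was the highest. Psph, the last enzyme of that pathway (-2.02 log2), and the mitochondrial folate enzymes Mthfd2 (-1.87 log2), Aldh1l2 (-1.94 log2) and Shmt2 (-1.85 log2) fell with it. The cytosolic folate enzyme Aldh1l1 went the other way, from 13.3, 8.1 and 8.82 to 63.8, 60.1 and 62.2 CPM (2.54 log2, adjusted p = 7.83e-14). Of 14 genes of proline, glutamate and asparagine synthesis, 9 fell and 4 rose. Asns, asparagine synthetase, was at 199.8, 321 and 324 CPM without and 128, 140.2 and 111 CPM with BCAA (-1.12 log2, adjusted p = 1.88e-06). The aspartate aminotransferase Got1 fell by more, from 142, 148 and 133 CPM to 26.9, 26.8 and 26.7 CPM (-2.35 log2, adjusted p = 1.10e-13). Glutamine synthetase, Glul, was among those that rose, from 97.4, 94.8 and 97.2 CPM to 265, 276 and 279.8 CPM (1.49 log2). In none of these genes did the groups overlap.

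Of 20 cytosolic aminoacyl-tRNA synthetases, 19 fell and none rose, with a median of -1.36 log2, and all 20 fell without library 1 (median -1.47 log2). The enzymes that charge the returned amino acids themselves were among them. Lars, for leucine, was at 363, 355 and 376 CPM without and 90.9, 98 and 85.9 CPM with BCAA (-1.98 log2, adjusted p = 9.27e-15). Vars, for valine, was at 602, 345 and 444 CPM and 122, 124 and 115 CPM (-1.90 log2), and Iars, for isoleucine, at 226, 302 and 312 CPM and 116, 107 and 111 CPM (-1.31 log2). The change was not limited to them: Wars, for tryptophan, was at 107, 364 and 330.3 CPM and 47.7, 53.3 and 43 CPM (-2.27 log2, or -2.83 log2 without library 1, its low library), and Yars, for tyrosine, changed by -2.08 log2. Qars, for glutamine, was at 78.3, 119 and 116 CPM and 96.7, 107 and 94.4 CPM and passed only without library 1 (-0.25 log2, adjusted p = 0.00582). In that fit the median change over all genes tested was -0.16 log2.

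Genes that break BCAA down did not move one way. Of 25 tested, 11 rose and 6 fell, at a median change of 0.02 log2 (10 and 7 without library 1). Bcat1, the cytosolic aminotransferase that takes the amino group off BCAA, fell from 101, 154 and 162 CPM to 51.9, 57.5 and 52.9 CPM (-1.32 log2, adjusted p = 1.39e-08). The mitochondrial form Bcat2 did not pass (-0.15 log2, adjusted p = 0.358). Of the BCKA dehydrogenase, the committed step, Bckdha fell (-0.49 log2), Bckdhb (-0.24 log2) and Dbt (0.02 log2) did not pass, and the kinase that switches it off, Bckdk (0.36 log2), and the phosphatase that switches it on, Ppm1k (0.88 log2), each rose. Downstream, the isoleucine pathway dehydrogenase Acadsb rose from 32.4, 64.5 and 57.2 CPM to 113, 121 and 128 CPM (1.27 log2), and the leucine pathway hydratase Auh by 1.14 log2.

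Of 36 genes of leucine sensing and mTORC1 control, 13 fell and 8 rose with all libraries, and 18 and 7 without library 1. The counts with all libraries lay near the shares over all genes tested, of which 33.3% fell and 25% rose. Without library 1 these shares were 40.3% and 23.5%. The Rag GTPase subunit Rragd was at 16.8, 20.7 and 18.5 CPM without and 1.5, 2.81 and 2.15 CPM with BCAA (-2.66 log2, adjusted p = 3.00e-11). Its regulators Flcn (-0.70 log2), Fnip1 (-0.62 log2) and Fnip2 (-1.17 log2) fell too. The Sestrins differed in direction: Sesn2 fell from 103, 132 and 148 CPM to 54.2, 48.6 and 48 CPM (-1.32 log2), while Sesn1 rose from 15.1, 12.7 and 14 CPM to 37.7, 41.7 and 41.8 CPM (1.47 log2) and Sesn3 by 1.15 log2. Deptor, an inhibitor bound to mTOR, rose from 2.11, 2 and 1.91 CPM to 9.89, 7.64 and 11.9 CPM (1.83 log2). Mtor itself did not pass with all libraries (-0.28 log2, adjusted p = 0.189) and was lower without library 1 (-0.50 log2, adjusted p = 0.00846).

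**Figure D2:**
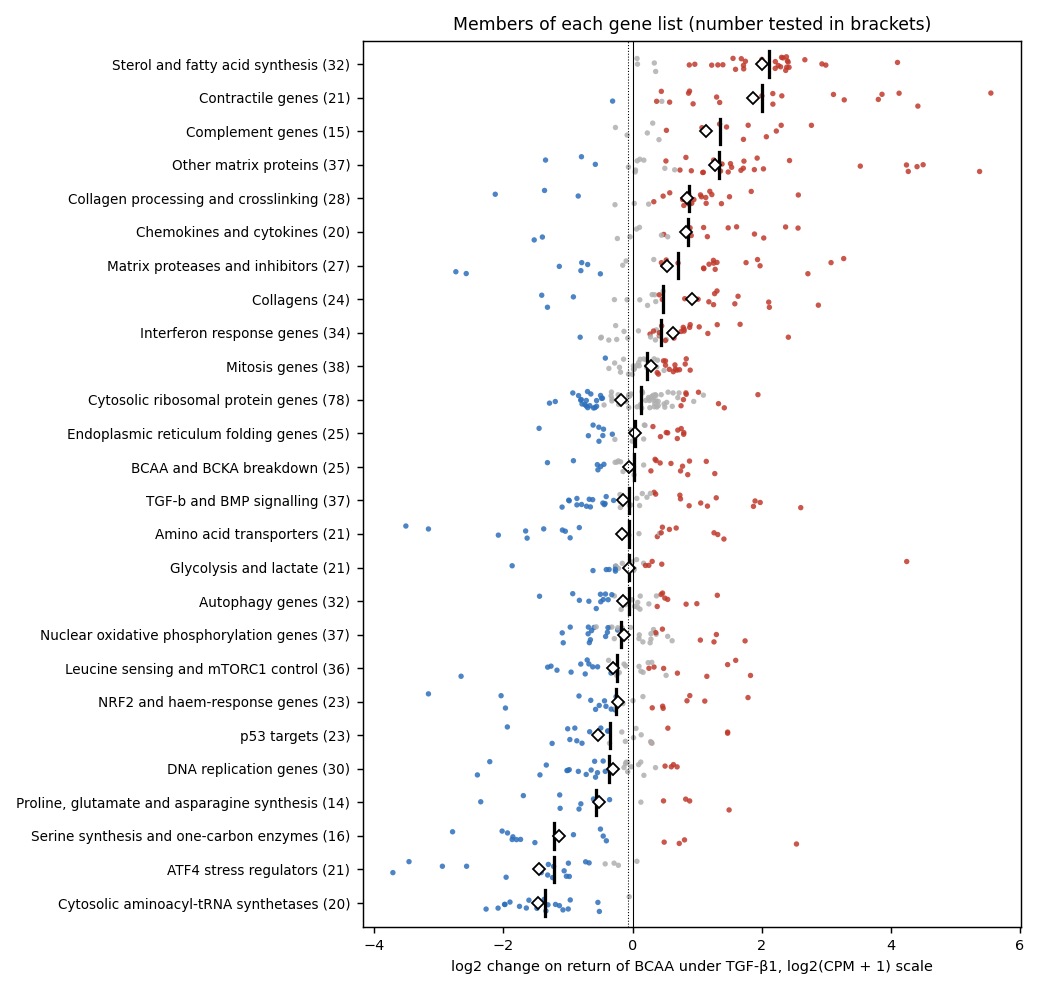
Change on return of BCAA under TGF-β1, on the log2(CPM + 1) scale, for the tested members of 26 gene lists. Each point is a gene, red where called higher, blue where called lower and grey where not called; black bars are list medians, open diamonds the medians without the BCAA-free library 1, and the dotted line the median of all genes. Synthetases (median -1.36) and ATF4-linked regulators (-1.22) lie at the low end, sterol synthesis (2.11) and contractile genes (2.00) at the high end.

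Nearly all contractile genes of the myofibroblast rose. Of 21 tested, 19 rose and 1 fell, at a median change of 2.00 log2 (17 and 1, median 1.87 log2, without library 1). Acta2, smooth muscle actin, the usual marker of the myofibroblast, was at 109, 205 and 167 CPM without BCAA and 2257, 2481 and 2095 CPM with them (3.86 log2, SE 0.16, adjusted p = 9.11e-15), a ratio of means of 14.2. The lowest returned library was thus far above the highest BCAA-free one. Skeletal actin, Acta1, at 0.571, 0.895 and 0.933 CPM and 81, 88.7 and 79.4 CPM (5.55 log2, adjusted p = 1.40e-19), had the largest rise of all named genes. Actin genes have nearly identical coding sequence, so how reads were shared among them is uncertain. Calponin, Cnn1, an actin-binding protein of smooth muscle, was at 3.69, 9.28 and 9.84 CPM and 137, 145 and 138 CPM (4.13 log2), and leiomodin, Lmod1, at 2.11, 3.16 and 3.44 CPM and 81.7, 85 and 77.7 CPM (4.42 log2). Library 1 was the lowest of the BCAA-free libraries in all 4 genes. Myosin light chain Myl9 (3.81 log2), its kinase Mylk (3.11 log2) and transgelin, Tagln (2.17 log2), rose as well. Caldesmon, Cald1, was the member that fell (-0.31 log2, adjusted p = 0.0194), a call lost after median centring, in a fit of the 2 compared groups alone and with edgeR, and Pdlim7 did not pass (0.45 log2).

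Serum response factor binds the CArG box, a motif of smooth and striated muscle genes. The CArG box was found in the promoter window of 5 of 18 contractile genes with one (Acta1, Myl9, Vcl, Fhl2 and Ldb3), against 1.54% of the genes tested, 2.25% of those that rose and 1.48% of those that fell. All 5 genes rose. No window of the 20 collagen genes that have one held it. Shown are the stretches of 3 genes with the box in capitals, at chr8:123894793-123894894 on the minus strand (Acta1, box 73 bases before the start), chr2:156775257-156775358 on the plus strand (Myl9, 161 bases) and chr14:20929148-20929226 on the plus strand (Vcl, which encodes vinculin of focal adhesions, 227 bases).
Acta1: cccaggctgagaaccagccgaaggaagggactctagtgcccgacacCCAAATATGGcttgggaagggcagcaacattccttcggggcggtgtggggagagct
Myl9: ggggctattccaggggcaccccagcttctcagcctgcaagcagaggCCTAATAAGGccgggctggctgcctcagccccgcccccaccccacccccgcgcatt
Vcl: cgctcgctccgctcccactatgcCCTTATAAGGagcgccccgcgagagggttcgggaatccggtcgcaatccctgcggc

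Collagen genes rose in part, and here library 1 decided several calls. Of 24 tested, 13 rose and 3 fell with all libraries (median 0.47 log2), and 19 rose and 3 fell without library 1 (median 0.93 log2). Without library 2 of the BCAA-free group, 5 fell. Col1a1, the main chain of type I collagen, was at 27677, 4495 and 6052 CPM without BCAA and 22479, 21043 and 21595 CPM with them (1.25 log2, SE 0.37, adjusted p = 0.00616). Library 1 was above all returned libraries, and libraries 2 and 3 were far below them. Without library 1 the change was 2.06 log2 (adjusted p = 3.22e-12). The call was lost without the BCAA-free library 2 (0.75 log2, adjusted p = 0.0601), with edgeR's quasi-likelihood test on the recovered reads (0.78 log2, adjusted p = 0.115), and in a limma fit of the compared groups alone (adjusted p = 0.16). Col1a2 at 27858, 5941 and 8096 CPM and 15452, 15179 and 15262 CPM did not pass (0.47 log2, adjusted p = 0.201), but did without library 1 (1.14 log2, adjusted p = 8.93e-09). The same held for Col3a1 of type III collagen, at 13729, 3208 and 4292 CPM and 7133, 7072 and 7027 CPM (0.30 log2, adjusted p = 0.393, and 0.93 log2, adjusted p = 1.55e-07, without library 1). The groups did not overlap in type VI collagen, a microfibril of the cell surface, with Col6a1 at 120.4, 69 and 85.8 CPM and 684, 634 and 671 CPM (2.88 log2, adjusted p = 3.95e-14) and Col6a2 changed by 2.12 log2. Nor did they in Col7a1, the anchoring fibril collagen, at 39, 6.05 and 11 CPM and 62.8, 61.6 and 66.9 CPM (2.11 log2). Col5a2 fell, from 24941, 7189 and 9989 CPM to 6479.9, 6357 and 6453 CPM (-0.92 log2, or -0.40 log2 without library 1), as did Col4a4 (-1.41 log2) and Col11a2 (-1.32 log2).

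Of 37 other matrix proteins, 26 rose and 3 fell, at a median change of 1.34 log2 (25 and 4 without library 1). Cemip, which binds and degrades hyaluronan, was at 73.1, 67 and 72 CPM without and 3131, 2595 and 3231 CPM with BCAA (5.37 log2, adjusted p = 3.77e-17). Fibromodulin, Fmod, a proteoglycan that guides collagen fibrils, was at 0.966, 1.41 and 0.891 CPM and 47.7, 41.5 and 49.2 CPM (4.50 log2). Cthrc1, a secreted protein of fibrotic fibroblasts, was at 2.33, 4.24 and 3.73 CPM and 87.5, 96.6 and 90.02 CPM (4.41 log2). No library of the BCAA-free group came near the returned ones in these 3 genes. Thrombospondin 1, Thbs1, which can activate latent TGF-β (3.53 log2), and the small proteoglycan Prelp (4.27 log2) rose as well. Among well known TGF-β1 targets, Ccn2, connective tissue growth factor, was at 1123, 1157 and 1156 CPM and 1142, 992 and 1159 CPM (-0.06 log2, 95% interval -0.27 to 0.14) and fibronectin, Fn1, at 4004, 9406 and 8659.9 CPM and 10344, 8489.9 and 10485 CPM (0.50 log2, 95% interval -0.06 to 1.06), and neither passed in the limma fit of all groups. Fn1 passed with edgeR (0.57 log2, adjusted p = 0.0392) and in limma with median centring (adjusted p = 0.0457), with array weights (0.21 log2, adjusted p = 0.0186) and without the BCAA-free library 2 (0.72 log2), while without library 1 it was at 0.11 log2 (adjusted p = 0.679). Periostin, Postn, rose by 0.52 log2 with all libraries and did not pass without library 1 (0.21 log2, adjusted p = 0.0516) or in a fit of the compared groups alone. Versican, Vcan, fell from 134, 337 and 312 CPM to 95, 90.7 and 97.5 CPM (-1.35 log2).

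Of 28 genes for collagen processing and crosslinking, 22 rose and 3 fell (median 0.87 log2; 23 and 3 without library 1). The prolyl hydroxylase subunit P4ha3 went from 23, 17.6 and 13.3 CPM to 117, 103 and 107 CPM (2.57 log2), the lysyl oxidase Loxl3 from 558, 254 and 288 CPM to 1273, 1219 and 1209.7 CPM (1.84 log2), and the collagen chaperone Serpinh1 rose by 1.23 log2. Adamts14, which trims procollagen, fell from 51.8, 43.3 and 54.1 CPM to 10.4, 11.9 and 9.53 CPM (-2.13 log2). Matrix proteases and their inhibitors moved each way, with 17 of 27 rising and 7 falling (16 and 9 without library 1). The plasminogen activator Plat (4.74, 6.6 and 4.96 CPM and 63.3, 55.8 and 62.8 CPM, 3.27 log2) and the metalloprotease inhibitor Timp1 (1.76 log2) rose. The metalloproteases Mmp11 (301, 299.5 and 299.5 CPM and 44, 44 and 44.4 CPM, -2.74 log2) and Mmp13 (-2.58 log2) fell. In Plat and Mmp11 the replicates were close to each other and the groups far apart.

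TGF-β and BMP signalling genes showed 12 rises and 15 falls among 37 tested, and 12 each without library 1. Of all genes tested, 25% rose and 33.3% fell, or 23.5% and 40.3% without library 1. The ligands Tgfb2 (1.05, 1.55 and 1.4 CPM without and 13.7, 12.6 and 13.2 CPM with BCAA, 2.60 log2) and Tgfb3 (25.1, 45.2 and 42.2 CPM and 149, 148 and 141 CPM, 1.98 log2) rose, whereas Tgfb1 fell (-0.46 log2). The activin antagonist follistatin, Fst, rose by 1.90 log2, and the BMP targets Id2 and Id3 by 1.30 and 1.87 log2. Several genes that damp the pathway, picked after their values were seen, fell. They were the inhibitory Smad Smad7 (110.4, 98.9 and 101 CPM and 60.3, 55 and 54.2 CPM, -0.86 log2), the co-repressors Skil (-1.09 log2) and Ski (-0.86 log2), and the ubiquitin ligases Smurf1 (-0.99 log2) and Smurf2 (-0.98 log2). Of the receptors, Tgfbr2 (0.33 log2) and Tgfbr3 (0.88 log2) rose and Tgfbr1 did not pass (-0.19 log2), and Smad3 did not pass either (-0.05 log2).

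Sterol and fatty acid synthesis had the highest median of the 26 lists. Of 32 genes tested, 28 rose and none fell (median 2.11 log2), with the same counts and a median of 2.01 log2 without library 1. The sterol enzyme Nsdhl was at 3.07, 9.63 and 7.63 CPM without and 58.3, 55.7 and 55.2 CPM with BCAA (2.99 log2, adjusted p = 2.81e-11). The fatty acid desaturase Scd2 was at 221, 217 and 248 CPM and 1802, 1672 and 1775 CPM (2.93 log2), and Hmgcs1, an early enzyme of the mevalonate pathway, at 48.3, 39 and 39.97 CPM and 216, 239 and 221 CPM (2.39 log2). The groups did not overlap in these genes. The sterol-sensing factor Srebf2 rose by 0.96 log2, Srebf1 did not pass (0.08 log2, adjusted p = 0.55), and the fatty acid enzymes Fasn (0.36 log2), Acaca (0.07 log2) and Acly (0.34 log2) did not pass.

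**Figure D3:**
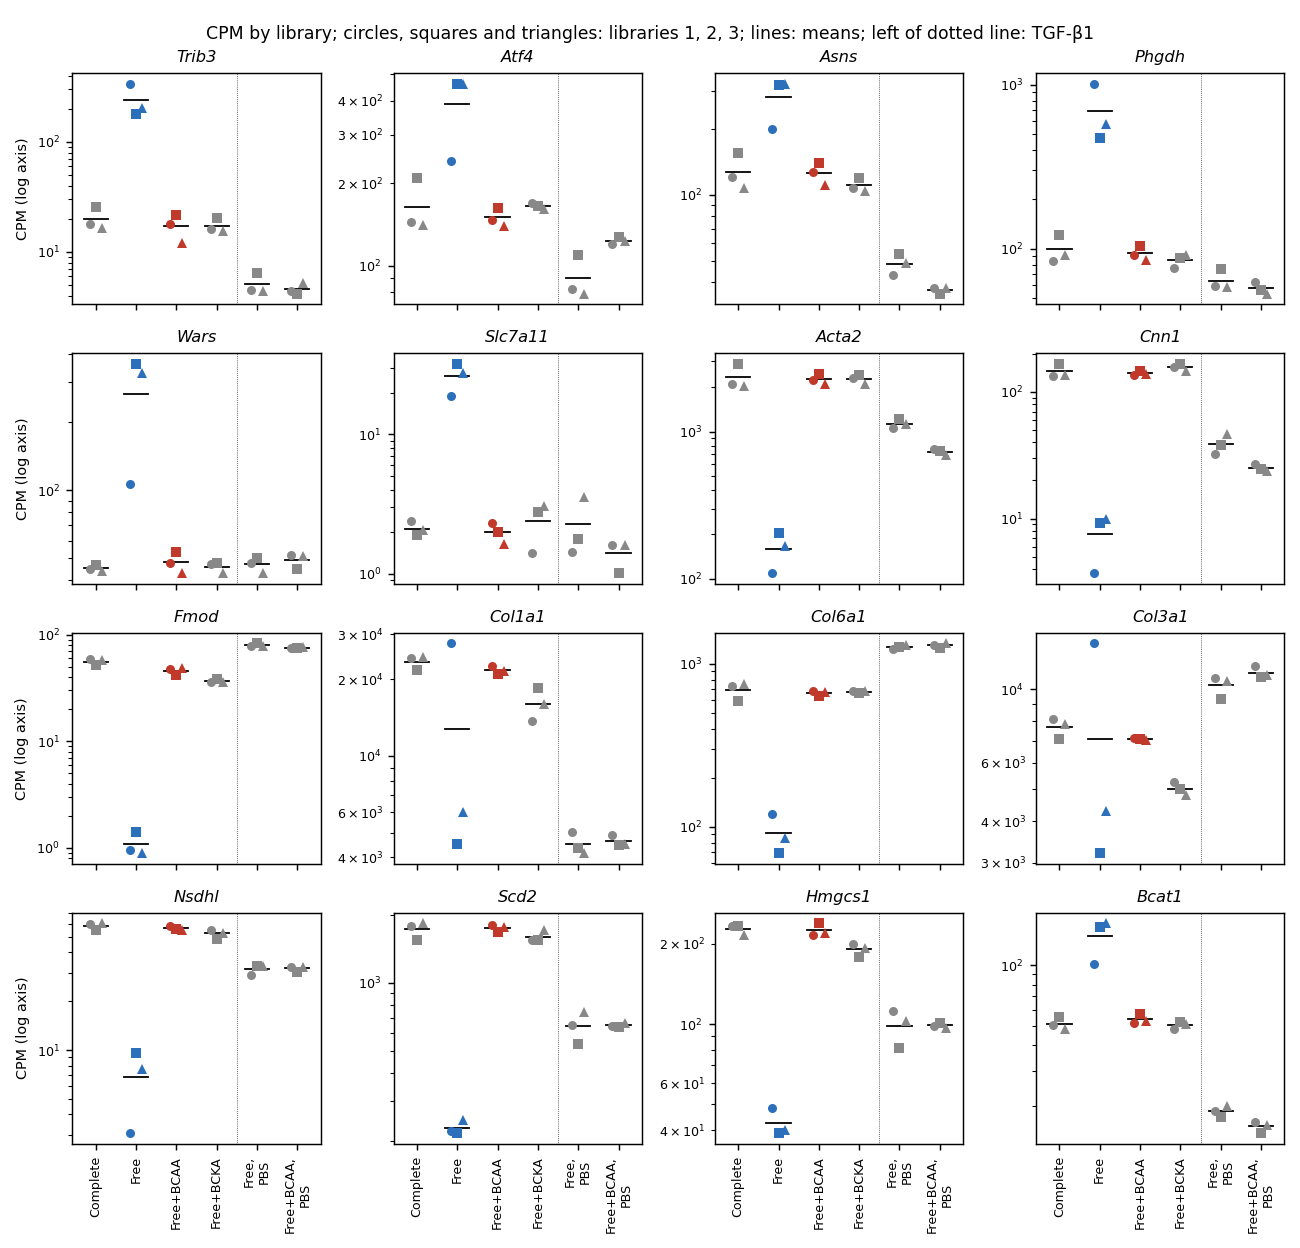
CPM of 16 genes in each library (log axis, a scale per gene) for complete, BCAA-free, BCAA-returned and BCKA-returned medium under TGF-β1 and, right of the dotted line, for BCAA-free and BCAA-returned medium under PBS. Symbols are libraries 1 to 3 and lines are means. The blue BCAA-free libraries stand apart from the other TGF-β1 groups in each gene but Col1a1 and Col3a1, where library 1 lies above the returned libraries.

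Lists of energy metabolism and cell division followed, to be read against 25% of all genes tested that rose and 33.3% that fell. The glycolysis counts lay near these shares. Of 21 glycolysis genes, 5 rose and 7 fell, at a median change of -0.06 log2 (5 and 9 without library 1), and 3 rose without either of the BCAA-free libraries 2 or 3 or of the returned libraries 2 or 3. Aldolase C, Aldoc, was at 1.54, 2.87 and 3.27 CPM without and 65.9, 64.8 and 64 CPM with BCAA (4.25 log2), and hexokinase 2, Hk2, fell (-1.87 log2). Of 37 nuclear genes of oxidative phosphorylation, 6 rose and 13 fell (4 and 13 without library 1), and 13 rose without the BCAA-free library 2. Of 38 mitosis genes, 14 rose and 1 fell (11 and 3 without library 1), as in cyclin B2, Ccnb2, from 0.922, 0.895 and 0.742 CPM to 2.5, 2.5 and 2.31 CPM (0.89 log2). Of 30 replication genes, 4 rose and 15 fell (4 and 14 without library 1). The helicase subunits Mcm2 (52.2, 74.7 and 83.9 CPM and 12.3, 12.4 and 12 CPM, -2.40 log2) and Mcm7 (-2.21 log2) fell most. Of 23 p53 targets 4 rose and 11 fell (6 and 13 without library 1), among them the growth arrest gene Gadd45a, which fell (-1.94 log2), and the death receptor Fas, which rose (1.47 log2).

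Stress pathways other than ATF4 moved each way, where 25% of all genes tested rose and 33.3% fell. The autophagy counts lay near these shares. Of 23 NRF2 and haem-response genes, 7 rose and 12 fell (6 and 13 without library 1), with haem oxygenase, Hmox1, from 319, 549.6 and 561 CPM to 115, 104 and 116 CPM (-2.04 log2) and thioredoxin reductase, Txnrd1 (-1.97 log2), among those that fell, while the quinone reductase Nqo1 rose (1.12 log2). Of 25 endoplasmic reticulum folding genes, 9 rose and 8 fell (10 and 8 without library 1). The chaperone Hspa5 fell from 1939, 1382 and 1492 CPM to 558, 628 and 559 CPM (-1.45 log2). Of 32 autophagy genes, 8 rose and 11 fell (7 and 13 without library 1), and the cargo receptor Sqstm1 fell (-1.44 log2). The 78 cytosolic ribosomal protein genes gave 8 rises and 21 falls, which moved with single libraries. Their rises numbered 5 without the BCAA-free library 1, 29 without the BCAA-free library 2, 3 without the returned library 2, 5 without the returned library 3 and 20 after median centring. These genes have many processed copies, between which reads are uncertain.

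Most genes of innate immunity tested rose on return. Of 34 interferon response genes, 20 rose and 1 fell (22 and 2 without library 1), with 12 rises and 2 falls without the returned library 1. The GTPase Iigp1 was at 10.9, 13 and 9.31 CPM without and 40.9, 30.5 and 40.3 CPM with BCAA (1.67 log2). Of 20 chemokines and cytokines tested, 12 rose and 2 fell (12 and 3 without library 1). The stromal chemokine Cxcl12 was at 126, 372 and 328 CPM and 1409, 1534 and 1478 CPM (2.56 log2), and the alarmin Il33 rose by 2.03 log2. The 2 that fell were Lif (148, 180.1 and 178 CPM and 65.6, 50.5 and 58.4 CPM, -1.52 log2) and Il11 (29.6, 42 and 37.8 CPM and 13.2, 13.9 and 12.2 CPM, -1.40 log2), cytokines of the interleukin 6 family. Of 15 complement genes, 10 rose and none fell (10 and 1 without library 1, the fall being Masp1 at -0.69 log2), with a median of 1.35 log2. Complement component C3 was at 131, 204 and 203 CPM and 935, 739.9 and 958 CPM (2.30 log2) and the C1 inhibitor Serping1 at 27.8, 91.8 and 80.8 CPM and 433, 394 and 403 CPM (2.77 log2). Apart from Masp1, the groups did not overlap for any immune gene named here, but most of these were named for their large changes. Over the whole lists the groups did not overlap for 13 of 34 interferon genes, 13 of 20 chemokines and cytokines and 10 of 15 complement genes. The share over all genes tested was 56.2%.

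Markers of the labelled cell type were present in every library. Of 9 general fibroblast markers 6 rose and none fell (8 without library 1), with Pdgfra at 503, 448 and 531 CPM without and 901, 787 and 929.6 CPM with BCAA. Of 12 markers of alveolar and adventitial fibroblasts 9 rose and 1 fell, as in the transcription factor Tcf21 (8.32, 7.92 and 8.61 CPM and 22.4, 23 and 22.9 CPM, 1.36 log2). Of 7 pericyte and smooth muscle markers tested 5 rose and 1, Cspg4, fell (-0.49 log2), a call lost without any of the libraries 2 and 3 of either group. But Acta2, Tagln and Myh11 among those that rose are contractile genes counted above, and Rgs5 and Higd1b were at or below 0.153 CPM. The summed CPM of 5 mesothelial markers was 16.2 to 18.8 without and 31.2 to 33.7 with BCAA, in groups that did not overlap, and 4 of the 5 rose, as in mesothelin, Msln (1.08 log2), while the keratin Krt19 fell (-0.93 log2). Their part in the other results was not tested. Of the remaining cell types the summed CPM of 8 endothelial markers was 1.21 to 1.49 without and 1.59 to 2.34 with BCAA, that of 10 epithelial markers 2.43 to 3.73 and 4.6 to 4.89, and that of 9 macrophage and leukocyte markers 0.966 to 2.83 and 10.02 to 11.6. Each of these sums was higher with BCAA, with no overlap between the groups. In the last, the macrophage genes Cd68 (1.74 log2), Csf1r (1.61 log2) and Lyz2 (0.96 log2) rose. The leukocyte antigen Ptprc and the lineage markers Adgre1, Cd3e and Itgax were at 0 in all 6 libraries.

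Among genes with a mean of at least 5 CPM in either group and no overlap between the groups, predicted genes left out, the largest rises passing with and without library 1 were Acta1, Cemip, the integrin subunit Itga8 (1.16, 2.87 and 2.48 CPM without and 116, 105 and 123 CPM with BCAA, 5.23 log2), the amine oxidase Aoc3 (4.81 log2), the sodium pump subunit Atp1b2 (4.76 log2), the T-type calcium channel Cacna1g (4.72 log2), the lymphatic growth factor Vegfd (4.59 log2), Fmod, Lmod1 and Cthrc1. The largest falls were the teneurin Tenm4 (69.3, 104 and 107 CPM and 0.182, 0.307 and 0.256 CPM, -6.22 log2), the adrenergic receptor Adra2a (58.4, 56.8 and 56.7 CPM and 0.364, 0.358 and 0 CPM, -5.57 log2), the mitochondrial protein Chchd10 (66.4, 172 and 143 CPM and 3, 2.86 and 3.1 CPM, -4.90 log2) and the growth factor binding protein Igfbp3 (1079, 719 and 806 CPM and 43.5, 49.2 and 41.2 CPM, -4.23 log2). They were followed by the carbonic anhydrase Car6 (-4.09 log2), advillin, Avil (-3.99 log2), Trib3, the acyl-CoA thioesterase Acot2 (-3.59 log2), Slc7a3 and Ddit3. Tenm4 and Adra2a were near 0 in every returned library.

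With BCAA returned, levels came close to those of complete medium. The comparison shares the returned libraries with the one above, so the values are set side by side. Of 13084 genes, 2 (0.0153%) were called against complete medium, and 262 had an unadjusted p under 0.05 in limma. The 2 were the acute phase genes Lrg1 (2.64, 1.79 and 3.23 CPM with BCAA returned, 5.57 ± 0.673 CPM in complete medium, -0.90 log2, adjusted p = 0.0401) and Hp, haptoglobin (12.6, 12.6 and 12.9 CPM and 23.4 ± 1.45 CPM, -0.84 log2, adjusted p = 0.0401), each lower than in complete medium. With edgeR neither passed, and leaving out any of the 6 libraries left at most 1 call. Of the 2237 genes called and moved by at least 1 log2 on return, 2226 (99.5%) were within 0.5 log2 of complete medium and none was 1 log2 or more from it. Library 2 of complete medium was less like the others, with an r of 0.984 and 0.985 with complete libraries 1 and 3, which reached 0.997. For the 2237 genes the median distance was 1.35 log2 from the BCAA-free group and 0.09 log2 from complete medium. The first distance is at least 1 log2 by the choice of these genes. Over all 13084 genes, 13038 (99.6%) were within 0.5 log2 of complete medium, at a median distance of 0.09 log2. The closeness to complete medium was thus not particular to the 2237 genes. Acta2 was at 2278 ± 194 CPM with BCAA returned and 2358 ± 475 CPM in complete medium, Trib3 at 17.2 ± 4.78 and 19.95 ± 4.71 CPM, Nsdhl at 56.4 ± 1.65 and 58.6 ± 2.85 CPM, and Col1a1 at 21706 ± 724 and 23483 ± 1572 CPM. The 95% interval of the difference was -0.37 to 0.30 log2 for Acta2, -0.70 to 0.26 log2 for Trib3, -0.48 to 0.37 log2 for Nsdhl and -0.90 to 0.67 log2 for Col1a1. These intervals are not adjusted for the number of genes tested, so they are not limits of detection. A difference inside them is not excluded, and larger ones could go uncalled too. Slc43a2, for example, was 0.40 log2 above complete medium (95% interval 0.08 to 0.73) and was not called.

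**Figure D4:**
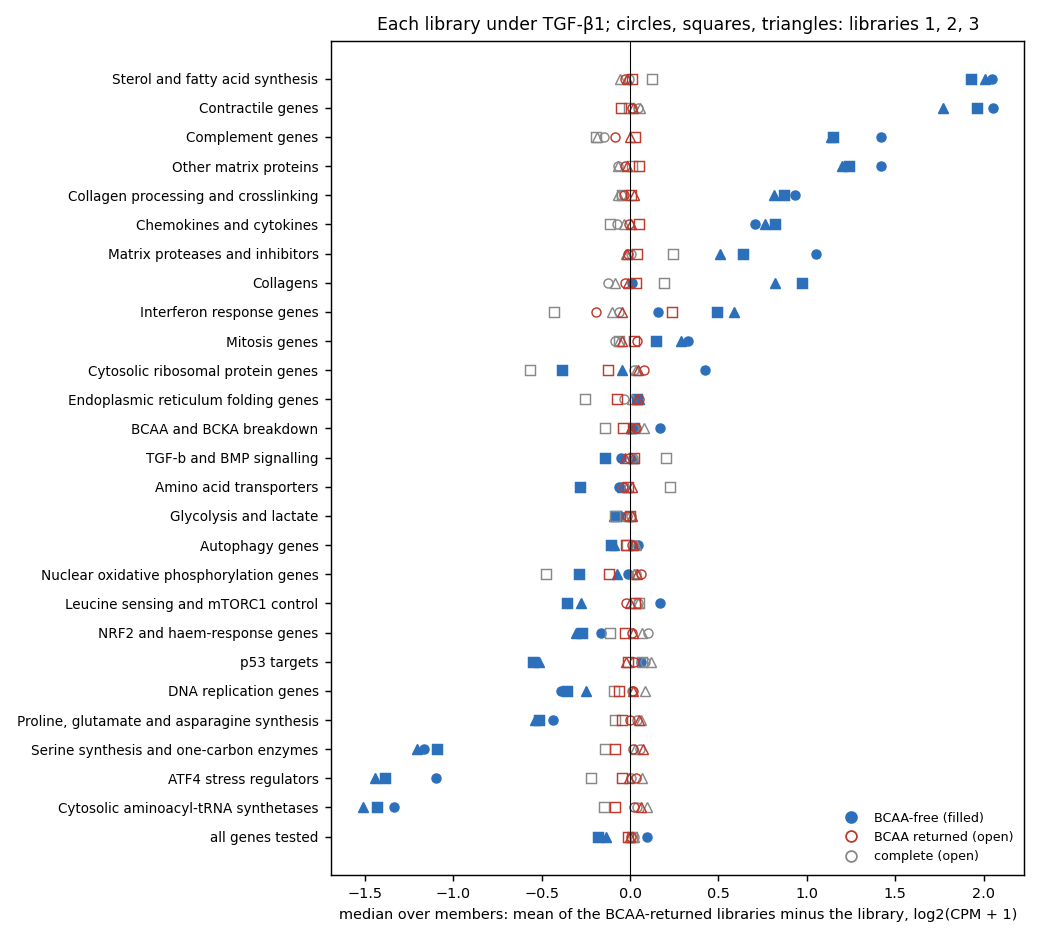
Median, over the tested members of each list, of the mean of the BCAA-returned libraries minus each library under TGF-β1, on the log2(CPM + 1) scale. Filled blue symbols are BCAA-free, open red BCAA-returned and open grey complete-medium libraries, with circles, squares and triangles for libraries 1 to 3. The 3 BCAA-free libraries lie together for sterol (1.93 to 2.05) and contractile genes (1.77 to 2.05). For collagens the median of library 1 (0.01) lies with those of the returned libraries, and those of libraries 2 and 3 do not (0.97 and 0.82). Single collagens of library 1 lie on both sides, 12 of 24 below the returned mean and 12 above it.

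Without TGF-β1, few genes were called on return of BCAA in the limma fit of all groups. Under PBS 34 of 13084 genes (0.26%) were called, 16 higher and 18 lower, and 769 had an unadjusted p under 0.05 in limma. The count was 4 to 19 when any 1 of the 6 PBS libraries was left out and 95 when the BCAA-free library 1 under TGF-β1, which shares the estimate of the spread, was left out. With array weights it was 2039. Of the mitosis genes 10 of 38 fell under PBS, as in the kinetochore protein Cenpf at 15.8 ± 0.537 CPM without and 5.55 ± 1.14 CPM with BCAA (-1.37 log2, adjusted p = 0.00128) and the proliferation marker Mki67 at 35.4 ± 2.87 and 17.3 ± 1.96 CPM (-0.99 log2). The lectin Clec3b rose (3.82 ± 1.49 and 9.15 ± 0.922 CPM, 1.12 log2). The ATF4-linked list, the synthetases, the contractile genes and the sterol genes had no call under PBS, with medians of 0.08, 0.01, -0.12 and -0.002 log2. Trib3 was at 5.12 ± 1.17 CPM without and 4.6 ± 0.577 CPM with BCAA under PBS, and Acta2 at 1133 ± 78 and 732 ± 34.1 CPM (-0.63 log2, adjusted p = 0.124).

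The change on return under TGF-β1 minus that under PBS, tested as a difference, was called for 5882 genes (45%), 2344 of them higher and 3538 lower under TGF-β1, or 2922 and 2813 after median centring. Among lists it was higher in 19 of 21 contractile and 28 of 32 sterol genes and lower in 17 of 21 ATF4-linked genes and 19 of 20 synthetases. It was higher in 29 of 38 mitosis genes, which fell in part under PBS. Of the 34 genes called under PBS, 8 rose and 2 fell in each condition, 9 went in opposite directions, and 15 were not called under TGF-β1. Hmox1 was 1 of those in opposite directions, with 0.75 log2 under PBS (adjusted p = 0.0287) and -2.04 log2 under TGF-β1, a difference of -2.79 log2 (adjusted p = 5.64e-10). Another was the alkaline phosphatase Alpl, with -0.53 log2 under PBS and 2.86 log2 under TGF-β1, a difference of 3.39 log2 (adjusted p = 2.40e-13). Hmox1 and Alpl were chosen after their values were seen.

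**Figure D5:**
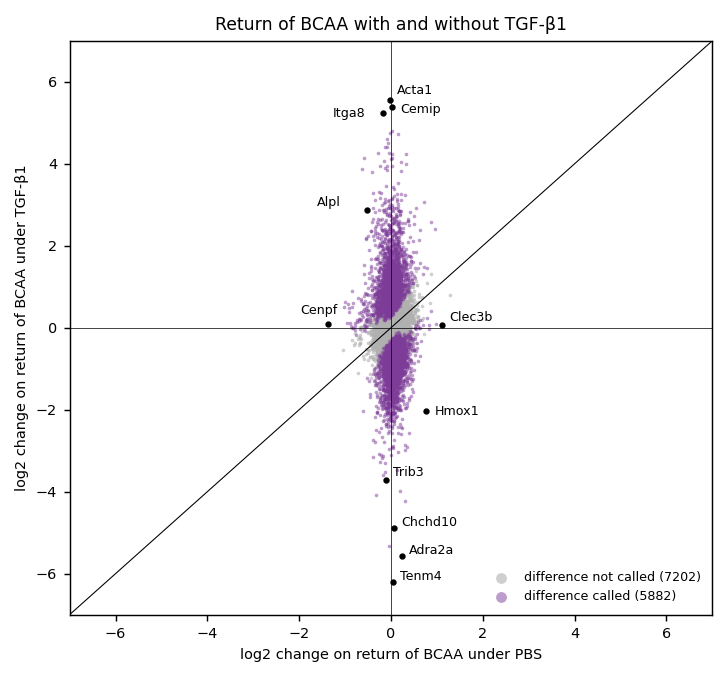
Change on return of BCAA under PBS (horizontal) and under TGF-β1 (vertical), each on the log2(CPM + 1) scale, for 13084 genes; purple points are the 5882 genes whose difference was called, and the diagonal marks equal changes. The points spread along the vertical axis from Tenm4 (-6.22) to Acta1 (5.55) and stay within a narrow band on the horizontal axis, from Cenpf (-1.37) to Clec3b (1.12) among the named genes.

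BCKA carry the same carbon skeletons as BCAA without the amino group, and the last comparison sets the 2 additions side by side. No source used here gives the concentrations. Against BCAA returned, BCKA returned under TGF-β1 gave 35 called genes of 13084 (0.268%), 29 higher and 6 lower, and 509 at an unadjusted p under 0.05 in limma. The count was 16 without the returned library 2, 17 without the BCKA library 3, 20 without the returned library 1, 22 and 23 without the BCKA libraries 1 and 2, and 86 without the BCAA-free library 1, which shares the estimate of the spread. The prolyl hydroxylase Egln3, an oxygen sensor, was at 45.1 ± 2.11 CPM with BCAA and 101 ± 1.04 CPM with BCKA (1.15 log2, adjusted p = 9.38e-06), and the semaphorin Sema7a at 9.34 ± 1.44 and 24 ± 3.66 CPM (1.27 log2, adjusted p = 0.00293). Advillin, Avil (-1.11 log2), and the RAS effector Rassf2 (-0.63 log2) were lower with BCKA. The main genes were not called: Acta2 was at 2278 ± 194 and 2291 ± 161 CPM (95% interval of the difference -0.33 to 0.35 log2), Asns at 126 ± 14.8 and 111 ± 7.61 CPM (-0.51 to 0.14 log2) and Col1a1 at 21706 ± 724 and 16037 ± 2372 CPM (-1.23 to 0.34 log2). Ccn2 was higher with BCKA, at 1098 ± 91.7 CPM with BCAA and 1544 ± 61.2 CPM with BCKA (0.49 log2, adjusted p = 0.0188). A gene that was not called is not shown to respond alike to both.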

How the data were processed

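Poly(A) RNA of 24 fibroblast cultures (8 groups of 3) was sequenced, per the labels' protocols. The submitters' processing notes name FastQC, Trim Galore, HISAT2, featureCounts, Subread, DESeq2 and mm39, with no versions or order. Annotation, strandedness and the treatment of reads shared between gene copies are not given in the sources used here, so overlapping, antisense and near-identical genes are uncertain.

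The authors deposited 1 table of all fibroblast libraries, named as TPM, whose values were found to be CPM, not scaled to length. In every library 100% of the values above 0 were whole multiples of 1 read (tolerance 0.01 read), giving 36785589 to 55449646 reads per library. The plan had assumed TPM, and the test was kept. Even read numbers were more frequent than odd ones (58.1% to 65.6% of values above 0), so counting error is larger than the read numbers alone give. Whole lungs were not analysed here.

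Genes with at least 1 CPM in at least 3 of the 24 libraries were tested, 13084 of 26264. limma 3.58.1 in R 4.3.3 was fitted to log2(CPM + 1) with group means over all 24 libraries (16 residual degrees of freedom) and an intensity trend, and p-values were adjusted by Benjamini-Hochberg over all genes tested. A fold on this scale understates the change of low genes. edgeR 4.0.16 (quasi-likelihood) on the recovered reads was an added alternative and called 7662 genes. Tested on simulated data with 200 genes changed by 1 log2, the fit recovered 90.8%, and 5.22% of its calls were false. The simulated noise was independent, with the same spread in every group, few genes changed and no library standing apart. These rates therefore do not carry over to the comparison made here. The genes named include the 10 largest rises and 10 largest falls among genes with at least 5 CPM in either group, predicted genes left out. These had to pass with and without the BCAA-free library 1, with groups that did not overlap. Added were the 3 largest changes of each list passing in both fits, and a fixed set of 32 genes. That set also holds Tenm4, Adra2a, Cemip and Itga8, which are among the largest changes here, so it is not taken as independent of these data. For each other comparison, up to 4 rises and 4 falls were named by the same level and overlap rule. The text gives part of these. Other list members were named after their values were seen. The libraries, the 26 lists and 7 marker lists were chosen with earlier results of these data known. Alternatives were other pseudocounts and filters, median centring, a fit of the compared groups alone, array weights, a replicate block and each library left out. Promoters came from RefSeq (GRCm38.p6, 32851 windows). GC content and transcript length came from the GENCODE vM21 transcripts of GRCm38 (longest transcript, 98.05% of genes tested matched by symbol).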

Additional observations from a re-analysis of the deposited data

Results flagged for a closer look

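The response to returned BCAA differed between TGF-β1 and PBS, by the test of the difference itself, for 5882 of 13084 genes in limma. Differences are the change under TGF-β1 minus that under PBS on the log2(CPM + 1) scale. The largest positive differences among the named genes were those of Acta1 (5.57 log2, adjusted p = 1.63e-16), Itga8 (5.41 log2, adjusted p = 5.58e-13), Cemip (5.36 log2, adjusted p = 5.24e-14) and Aoc3 (4.79 log2, adjusted p = 1.27e-15). The largest negative differences among the named genes were those of Tenm4 (-6.26 log2, adjusted p = 3.93e-15), Adra2a (-5.80 log2, adjusted p = 1.02e-15), Chchd10 (-4.96 log2, adjusted p = 2.21e-10) and Igfbp3 (-4.54 log2, adjusted p = 1.57e-14). None of the 8 was called under PBS, where Itga8 was at 70.2 ± 15.7 CPM without and 61 ± 2.42 CPM with BCAA, Igfbp3 at 114 ± 6.75 and 141 ± 0.661 CPM, and Tenm4 at 0.136 ± 0.176 and 0.16 ± 0.0528 CPM. No group had 4 or more libraries, so single libraries were not tested against their group.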

How the results depend on the processing

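The count of 7633 genes called on return of BCAA under TGF-β1, and its 3276 rises and 4357 falls, stayed within 1.5 times under all 15 alternatives, though the split moved. Median centring gave 3886 higher and 3780 lower, edgeR on recovered reads 3923 and 3739, with 6960 of its 7662 calls shared with limma. Array weights gave 10829 calls and a fit of the 2 groups alone 5293. Of 142 named genes 133 were called, 120 of them under every alternative run, and no named gene changed direction where called. Most of them were chosen as large changes that pass with and without the BCAA-free library 1. These counts therefore do not describe how stable the calls of other genes are. Between the 2 compared groups, deviations of same-numbered libraries correlated at -0.001, 0.038 and 0.050, and the replicate block gave 7650 calls. Library 1 stood apart in the BCAA-free group, and pairing across the other groups was not tested. Library 2 of complete medium had an r of 0.989 with returned library 2 and 0.983 with returned libraries 1 and 3. Libraries 1 and 3 of complete medium were not closest to the returned library of their own number. The 34 calls under PBS became 13 and 16 at pseudocounts of 0.1 and 0.5, 21 in a fit of those groups alone, 2039 with array weights, 12 with edgeR and 4 to 19 with a library left out. The 2 calls against complete medium became 0 at a pseudocount of 0.5, after centring, in the compared groups alone and with edgeR, 1 without the filter, 17 with array weights and 0 to 1 with a library left out. The 35 calls between BCKA and BCAA became 96 in the compared groups alone, 535 with array weights and 16 to 26 with a library left out. The 5882 differences between TGF-β1 and PBS became 9903 with array weights. Causes were not tested. With 3 libraries a group, changes near the standard error (median 0.15 log2) cannot be detected, and genes near 1 CPM are limited by depth.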

Other observations

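With BCAA returned, levels under TGF-β1 lay below those under PBS for some genes and above them for others. Complement C3 was at 878 ± 119.8 CPM with BCAA returned under TGF-β1 and at 9109.5 ± 552 CPM under PBS. The acute phase gene Hp was at 12.7 ± 0.203 CPM and 531 ± 26.9 CPM. Fibromodulin, Fmod, was at 46.1 ± 4.11 CPM and 75.7 ± 0.812 CPM, so for these 3 genes the level under PBS was the higher one. Acta1 was at 83 ± 5.01 CPM and 0.252 ± 0.106 CPM, with the level under TGF-β1 the higher one. The difference between PBS and TGF-β1 was not tested here, and these genes were chosen after their values were seen.

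Egln3 and several other genes known to respond to low oxygen were higher with BCKA than with BCAA under TGF-β1. The glucose transporter Slc2a1 was at 224 ± 6.97 CPM with BCAA and 354 ± 36.2 CPM with BCKA (0.66 log2, adjusted p = 1.60e-04), the lactate transporter Slc16a3 at 208 ± 10.9 and 338 ± 6.32 CPM (0.70 log2, adjusted p = 1.41e-05) and the kinase Pdk1 at 67.8 ± 2.1 and 105 ± 5.12 CPM (0.62 log2, adjusted p = 1.10e-04). Between BCAA-free medium and BCAA returned, Egln3 did not pass (-0.04 log2, adjusted p = 0.794), Slc2a1 (-0.41 log2, adjusted p = 2.20e-04) and Slc16a3 (-0.27 log2, adjusted p = 0.00342) were lower with BCAA, and Pdk1 was higher (0.20 log2, adjusted p = 0.0256). These genes too were chosen after their values were seen.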
